A study of Mus musculus with 8 samples.

Results

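Expression of 10 genes of natural killer (NK) cells was followed in spleen RNA of 8 mice: the surface receptors Ncr1, Klrk1, Klrb1c, Klrd1, Klrc1 and Klre1, the transcription factors Eomes and Tbx21, and the cytokine receptor chains Il2rb and Il12rb2. Each gene was read from the probe set that the array's annotation assigns to that gene alone, and all 10 had 1 such probe set, of 19938 genes measured in this way. Affymetrix Mouse Gene 1.0 ST arrays were used, 1 per mouse, on RNA of spleen cells that had been released with collagenase and DNase. The 3 groups, all labelled C57/B6, were wild type (WT, 2 mice, both labelled male), Sle1.3 (3 mice carrying the Sle1.3 lupus genotype, labelled female, female and male) and Sle1.3/E2-2het (3 mice, labelled male, male and female, that carry Sle1.3 and are haplodeficient for E2-2). Both Sle1.3 groups thus share the lupus genotype. By their labels they differ in E2-2, the transcription factor encoded by Tcf4 that plasmacytoid dendritic cells require, and in the sexes of the mice. The kind of E2-2 allele and the ages of the mice are not given in the sources used here, and no WT mouse with E2-2 loss was compared.

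NK cells are innate lymphocytes that kill stressed, infected or transformed cells without prior sensitisation, by weighing signals from activating and inhibitory surface receptors. Their development and survival depend on interleukin-15, read through Il2rb, and on the T-box factors Eomes and Tbx21, and interleukin-12 acting through Il12rb2 primes them to make interferon gamma. Several of these genes are also transcribed in activated CD8 T cells, in T helper type 1 cells or in type 1 innate lymphoid cells, so in whole spleen none of them counts NK cells alone.

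In Sle1.3 spleens 5 of the 9 genes that could be tested fell against WT (Klrk1, Klrc1, Eomes, Il2rb and Il12rb2), by 1.03 to 1.76 on the log2 scale, where 3.22% of all genes tested were called lower. In Sle1.3/E2-2het spleens the panel split. The receptors Ncr1, Klrk1, Klrd1 and Klrc1 and the cytokine receptor chain Il12rb2 were higher in all 3 mice than in any Sle1.3 mouse, as 3.04% of all genes were, while Eomes, Tbx21 and Il2rb lay near their Sle1.3 levels. None of these differences from Sle1.3 passed the planned test. By sex-linked genes the WT mice were male, the Sle1.3 mice female and the Sle1.3/E2-2het mice male, male and female. Sex was therefore mixed with genotype in these comparisons. Once same-numbered mice were compared with each other, 6 of the 9 passed as higher, with 0.548% of all genes. No label says that same-numbered mice are pairs. Il12rb2 alone passed (0.154% of all genes) when only the 2 sets of arrays described below were a block. Without any block, the first of those sets gave 0 of the 9 (0.14%). In bulk RNA of this kind, fewer cells of a type and less RNA per cell cannot be told apart.

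The promoters of the receptors are shown because the receptors and the T-box factor Eomes followed different patterns across the 3 groups. RUNX factors, which act in NK cell development, can bind the letters TGTGGT, and this motif and its reverse complement ACCACA are in capitals. Only these exact letters were searched, so a window without them may still hold another form of a RUNX site. Sequences run 5′ to 3′ on the strand of the gene, from 250 bases before to 50 bases after the annotated start, as RefSeq gives them on GRCm38.p6, for the first of the 2 annotated starts of Ncr1 (chr7:4337465-4337764, plus strand), Klrk1 (chr6:129623815-129624114, minus strand), Klrb1c (chr6:128788592-128788891, minus strand), Klrc1 (chr6:129678924-129679223, minus strand) and Eomes (chr9:118477939-118478238, plus strand).
Ncr1: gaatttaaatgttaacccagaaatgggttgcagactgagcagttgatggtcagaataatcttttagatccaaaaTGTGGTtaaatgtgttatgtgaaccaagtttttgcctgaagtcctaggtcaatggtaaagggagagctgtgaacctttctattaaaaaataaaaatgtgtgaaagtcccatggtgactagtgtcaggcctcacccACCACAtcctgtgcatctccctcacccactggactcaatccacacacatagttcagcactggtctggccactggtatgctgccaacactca
Klrk1: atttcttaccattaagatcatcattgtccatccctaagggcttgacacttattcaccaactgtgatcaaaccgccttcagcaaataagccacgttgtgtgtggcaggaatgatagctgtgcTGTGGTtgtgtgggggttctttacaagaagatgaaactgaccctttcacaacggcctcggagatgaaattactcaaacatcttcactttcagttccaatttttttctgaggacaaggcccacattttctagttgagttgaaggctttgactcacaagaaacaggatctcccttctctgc
Klrb1c: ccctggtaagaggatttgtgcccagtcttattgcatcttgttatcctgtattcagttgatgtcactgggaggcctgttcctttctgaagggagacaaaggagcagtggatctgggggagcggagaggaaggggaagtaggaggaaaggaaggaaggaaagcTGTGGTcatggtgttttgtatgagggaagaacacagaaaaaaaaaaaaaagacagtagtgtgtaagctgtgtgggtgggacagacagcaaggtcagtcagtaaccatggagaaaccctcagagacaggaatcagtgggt
Klrc1: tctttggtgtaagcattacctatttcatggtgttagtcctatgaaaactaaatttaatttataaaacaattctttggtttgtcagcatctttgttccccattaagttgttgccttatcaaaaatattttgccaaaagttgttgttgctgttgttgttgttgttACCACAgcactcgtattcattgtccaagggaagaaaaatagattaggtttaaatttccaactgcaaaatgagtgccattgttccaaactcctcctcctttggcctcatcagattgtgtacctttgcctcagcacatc
Eomes: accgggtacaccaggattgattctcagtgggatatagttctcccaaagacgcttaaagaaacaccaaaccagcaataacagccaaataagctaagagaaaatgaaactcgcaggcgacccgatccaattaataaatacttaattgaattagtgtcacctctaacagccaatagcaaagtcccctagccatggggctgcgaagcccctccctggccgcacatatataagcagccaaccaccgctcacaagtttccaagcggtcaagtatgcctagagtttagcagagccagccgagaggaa
A promoter window was matched for 8 of the 10 genes, all but Klrd1 and Il2rb. The RUNX letters, searched on both strands, were in 5 of these 8: Ncr1, Klrk1, Klrb1c, Klrc1 and Klre1, which are all of the receptors with a window. Klre1 held them in 1 of its 2 windows, 229 bases before the first start. Of 27025 mouse genes with such windows, 18.9% held them. The windows of Eomes, Tbx21 and Il12rb2 did not hold these letters. Ncr1 held 2 matches, at 176 and 41 bases before the start, and Klrk1, Klrb1c and Klrc1 held 1 each, at 129, 89 and 87 bases before it. The T-box letters GGTGTGA (reverse TCACACC) were in 0 of the 8, against 4.6% of all genes. The E-box letters CAGGTG (reverse CACCTG), of the kind that E2-2 and other E proteins bind, were in 1, Tbx21, against 22.6%, and the ETS letters GGAAGT (reverse ACTTCC) were in 3, Klrb1c, Tbx21 and Il12rb2, against 26.5%. The T-box letters can overlap the end of the RUNX letters (GGT) or of the E-box letters (GGTG). The motifs were chosen after these sequences had been read, and a match describes the letters only, not a bound site.

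The arrays fell into 2 sets that the labels do not name. Both arrays labelled replicate 3 had a median log2 intensity of 6.17 and lowest intensities of 10.9 and 11.2, against medians of 5.83 to 5.95 and lowest intensities of 4.57 to 5.11 in the other 6 arrays, which are called the first array set and hold 2 mice of each group. The array labelled Sle1.3 replicate 3 went against its labelled sex. Its log2 intensity of Xist, the X-inactivation transcript, was 11.90, close to 10.77 and 10.68 in the other Sle1.3 mice, and its Y-linked genes Kdm5d (4.19), Uty (4.27) and Eif2s3y (3.83) were near the floor. By these genes all 3 Sle1.3 mice were female, both WT mice were male, and the Sle1.3/E2-2het mice were male, male and female, so genotype and sex cannot be told apart in Sle1.3 versus WT. Tcf4, which checks the E2-2 label, was 8.18 and 8.13 in Sle1.3/E2-2het replicates 1 and 2, against 8.67, 8.63 and 9.06 in Sle1.3, and 9.25 in the array labelled Sle1.3/E2-2het replicate 3, the highest of all 8. Whether its probe set lies in the altered part of the gene is not known. For these reasons the differences of the 9 tested genes between the Sle1.3 groups are also given for the first set alone. In that set both Sle1.3 mice were female and both Sle1.3/E2-2het mice male by these genes. Sex and E2-2 status therefore cannot be told apart there. Nothing beyond the numbering of the mice says how litters or days were arranged, and with 2 or 3 mice a group the number of arrays limits the precision.

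**Figure D1:**
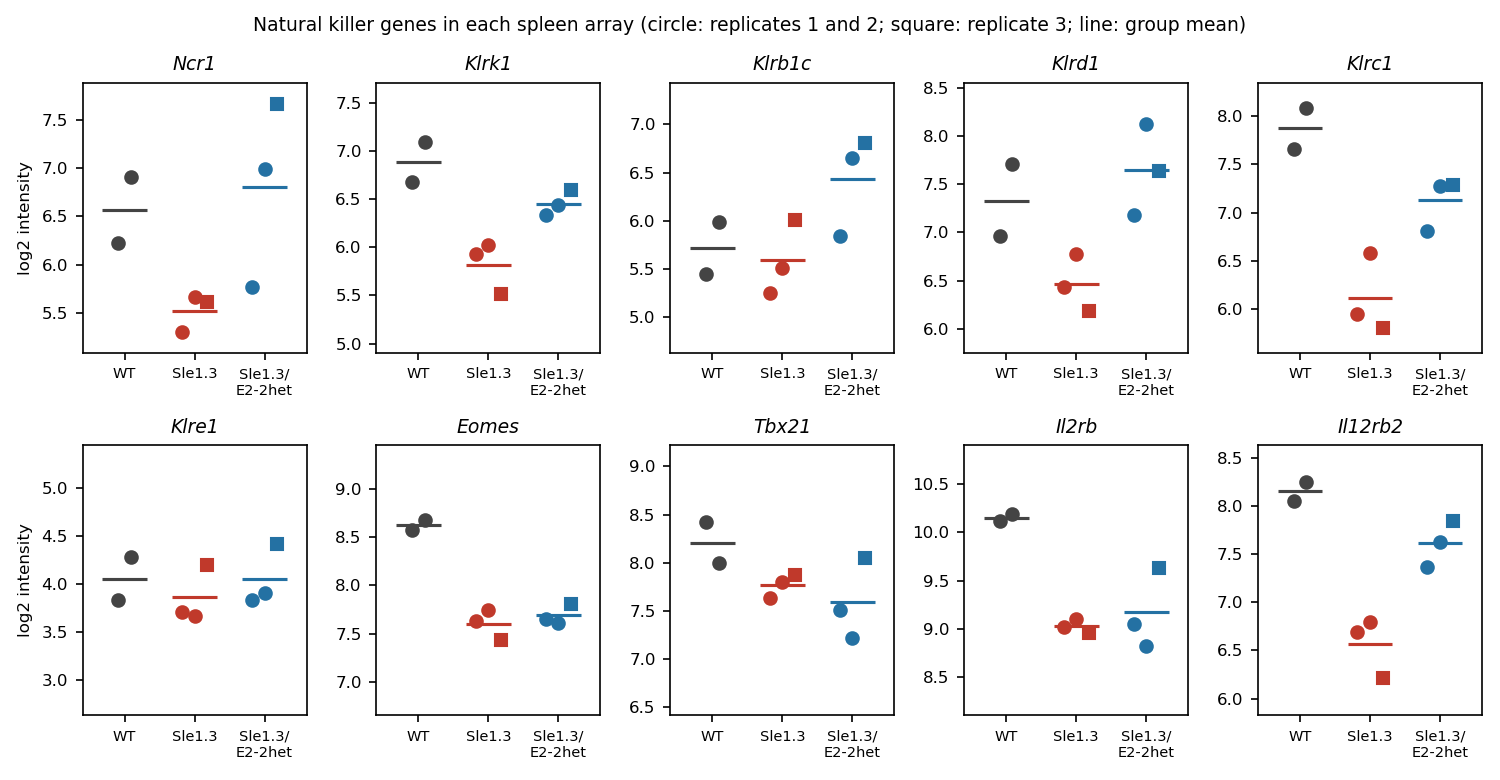
Log2 intensity (vertical axis) of each of the 10 genes in every spleen array, by group. Points are mice (circles replicates 1 and 2, squares replicate 3) and lines are group means. Eomes and Il2rb lay below WT in both Sle1.3 groups, which overlapped. Klrc1 and Il12rb2 were lowest in Sle1.3, with Sle1.3/E2-2het between it and WT.

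Ncr1 encodes NKp46, an activating receptor and the most restricted marker of NK and innate lymphoid cells among the 10. Its log2 intensity was 6.22 and 6.91 in WT, 5.30, 5.66 and 5.61 in Sle1.3, and 5.77, 6.99 and 7.67 in Sle1.3/E2-2het. All Sle1.3 arrays lay below every other array, while the widely spread Sle1.3/E2-2het mice overlapped WT. Sle1.3 was lower than WT by 1.04 (log2 difference -1.04, SE 0.43, limma adjusted p = 0.177), -1.39 without WT replicate 1 and -0.70 without WT replicate 2. Sle1.3/E2-2het was higher than Sle1.3 by 1.28 (SE 0.39, adjusted p = 0.601), or 2.44-fold. Replicate 3 gave the largest part of that difference, which was 0.90 in the first set alone (adjusted p = 0.391). Against WT, the Sle1.3/E2-2het difference was 0.24 (95% confidence interval -0.71 to 1.19) and turned to -0.19 in the first set.

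Klrk1 encodes NKG2D, an activating receptor for stress-induced ligands of the Rae-1, H60 and MULT1 families that is also carried by CD8 T cells. It read 6.68 and 7.09 in WT, 5.93, 6.02 and 5.52 in Sle1.3, and 6.34, 6.44 and 6.59 in Sle1.3/E2-2het. The groups did not overlap, and Sle1.3/E2-2het lay between the others. The fall from WT to Sle1.3 passed the test (log2 difference -1.06, SE 0.21, limma adjusted p = 0.0182), which is 2.09-fold. Sle1.3/E2-2het exceeded Sle1.3 by 0.63 (SE 0.19, adjusted p = 0.574) and was below WT by a log2 difference of -0.43 (SE 0.21, adjusted p = 0.195). In the first set these differences were 0.42 (adjusted p = 0.415) and -0.50, which passed there (adjusted p = 0.0451).

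Klrb1c encodes NK1.1, the activating receptor by which NK cells are usually gated in C57BL/6 mice. Its values were 5.45 and 5.99 in WT, 5.25, 5.51 and 6.01 in Sle1.3, and 5.84, 6.65 and 6.81 in Sle1.3/E2-2het. WT and Sle1.3 overlapped fully, and Sle1.3/E2-2het replicate 1 lay among them. The log2 difference between Sle1.3 and WT was -0.13, with a wide 95% confidence interval of -0.82 to 0.56. In the first set it was -0.34 (limma adjusted p = 0.406). The difference of Sle1.3/E2-2het from Sle1.3 was 0.84 (SE 0.28, limma adjusted p = 0.751) and that from WT 0.71 (SE 0.31, adjusted p = 0.161), and they were 0.86 (adjusted p = 0.257) and 0.52 (adjusted p = 0.136) in the first set. Klrb1c has near-identical relatives, Klrb1a and Klrb1b among them, so part of its signal may belong to those genes.

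Klrd1 and Klrc1 encode CD94 and NKG2A, which pair into an inhibitory receptor for the nonclassical class I molecule Qa-1. Klrd1 was 6.96 and 7.71 in WT, 6.43, 6.78 and 6.18 in Sle1.3, and 7.18, 8.12 and 7.64 in Sle1.3/E2-2het. Klrc1 was 7.66 and 8.09 in WT, 5.95, 6.58 and 5.80 in Sle1.3, and 6.81, 7.28 and 7.29 in Sle1.3/E2-2het. Sle1.3 lay below the other groups for both genes, but Sle1.3/E2-2het overlapped WT for Klrd1 and stayed wholly below it for Klrc1. Klrc1 fell from WT to Sle1.3 by the largest amount of the panel (log2 difference -1.76, SE 0.26, limma adjusted p = 0.00828), a 3.40-fold difference, whereas Klrd1 had -0.87 (SE 0.30, adjusted p = 0.116), -1.25 without WT replicate 1 and -0.49 without WT replicate 2. In Sle1.3/E2-2het against Sle1.3, Klrd1 was higher by 1.18 (SE 0.27, adjusted p = 0.272) and Klrc1 by 1.02 (SE 0.24, adjusted p = 0.282), which became 1.05 (adjusted p = 0.236) and 0.78 (adjusted p = 0.268) in the first set. Against WT in the first set, Sle1.3/E2-2het differed by 0.32 for Klrd1 (adjusted p = 0.43) and by -0.83 for Klrc1, which passed there (adjusted p = 0.0242). Klrc1 shares sequence with Klrc2 and Klrc3, whose signal cannot be separated from it with certainty.

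Klre1 encodes a receptor that pairs with Klri1 or Klri2 and lies next to Klrd1 and Klrk1 in the NK gene complex. Its probe set was dim in every array, at 3.83 and 4.28 in WT, 3.71, 3.67 and 4.20 in Sle1.3, and 3.83, 3.91 and 4.41 in Sle1.3/E2-2het. The groups overlapped, and the highest values of each Sle1.3 group came from replicate 3. Its mean lay at the 5.13th percentile of all genes, under the 25th percentile (log2 5.01) that a gene had to exceed to be tested, so Klre1 was left out of the planned fit and the other 9 genes were tested. With no filter its log2 differences were -0.20 in Sle1.3 from WT (limma adjusted p = 0.633) and 0.19 in Sle1.3/E2-2het from Sle1.3 (adjusted p = 1.00).

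Eomes is a T-box factor that NK cells and CD8 memory T cells need to mature. It was 8.58 and 8.68 in WT, 7.63, 7.74 and 7.43 in Sle1.3, and 7.65, 7.61 and 7.81 in Sle1.3/E2-2het. Both Sle1.3 groups lay at one level, overlapping each other and below both WT mice. The fall was 2.04-fold in Sle1.3 (log2 difference -1.03, SE 0.18, limma adjusted p = 0.0120) and 1.92-fold in Sle1.3/E2-2het (-0.94, SE 0.18, adjusted p = 0.0160). Between the Sle1.3 groups the difference was 0.09 with a 95% confidence interval of -0.26 to 0.43, and -0.06 in the first set.

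Tbx21 encodes T-bet, the T-box factor of terminal NK cell maturation and of T helper type 1 cells. It was 8.42 and 8.0 in WT, 7.63, 7.80 and 7.87 in Sle1.3, and 7.51, 7.22 and 8.05 in Sle1.3/E2-2het. Sle1.3 lay below WT without overlap, but the Sle1.3/E2-2het replicate 3 mouse reached into the WT range. Neither difference from WT passed the test, with -0.44 (SE 0.25, limma adjusted p = 0.304) for Sle1.3 and -0.62 (SE 0.25, adjusted p = 0.131) for Sle1.3/E2-2het. The Sle1.3 value was -0.23 without WT replicate 1 and -0.66 without WT replicate 2. Without Sle1.3/E2-2het replicate 3 the latter was -0.85 and passed (adjusted p = 0.0225, in a range of 0.00251 to 0.429 over the alternatives). Sle1.3/E2-2het differed from Sle1.3 by -0.17 (95% confidence interval -0.66 to 0.31) and by -0.35 in the first set.

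Il2rb encodes the beta chain shared by the receptors for interleukin-2 and interleukin-15, and it was at 10.12 and 10.19 in WT, 9.02, 9.10 and 8.96 in Sle1.3, and 9.05, 8.82 and 9.63 in Sle1.3/E2-2het. Both Sle1.3 groups lay below WT and overlapped each other, with replicate 3 the highest Sle1.3/E2-2het mouse. Il2rb fell 2.18-fold in Sle1.3 (log2 difference -1.13, SE 0.23, limma adjusted p = 0.0204) and 1.98-fold in Sle1.3/E2-2het (-0.98, SE 0.23, adjusted p = 0.0312). The difference between the Sle1.3 groups was 0.14 (95% confidence interval -0.31 to 0.59) and -0.13 in the first set.

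Il12rb2, the signalling chain of the interleukin-12 receptor, was 8.05 and 8.25 in WT, 6.69, 6.80 and 6.21 in Sle1.3, and 7.37, 7.63 and 7.84 in Sle1.3/E2-2het. The 3 groups did not overlap, and Sle1.3/E2-2het lay between the others, as Klrk1 and Klrc1 did. It fell 3.0-fold from WT to Sle1.3 (log2 difference -1.58, SE 0.22, limma adjusted p = 0.00758), the smallest adjusted p of the panel. Sle1.3/E2-2het was above Sle1.3 by 1.05 (SE 0.20, adjusted p = 0.193) and below WT by -0.54 (SE 0.22, adjusted p = 0.143). In the first set these were 0.76 (adjusted p = 0.0868) and -0.65, which passed there (adjusted p = 0.0131).

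Sle1.3 spleens were compared with WT to describe the lupus genotype. Klrk1, Klrc1, Eomes, Il2rb and Il12rb2 fell, and 0 of the 9 genes rose, where 3.22% of the 14953 genes tested were called lower. All 9 differences were below 0, with a median of -1.04 against 0.03 over all genes tested. In 8 of the 9, all but Klrb1c, the highest Sle1.3 array was below the lowest WT array, a pattern that 24.4% of all genes showed. The first array set alone called the same 5 genes, where 10.7% of genes were called lower there, so the calls did not need the replicate 3 arrays. They did need both WT mice: without WT replicate 1 or without WT replicate 2 none of the 9 passed by limma, and 9 and 2 of all genes did. Each of these fits leaves 1 WT mouse, and the medians of the 9 differences were -1.25 and -0.86 in them. Without Sle1.3 replicate 1, Klrk1 and Il2rb no longer passed and 3 genes remained called.

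**Figure D2:**
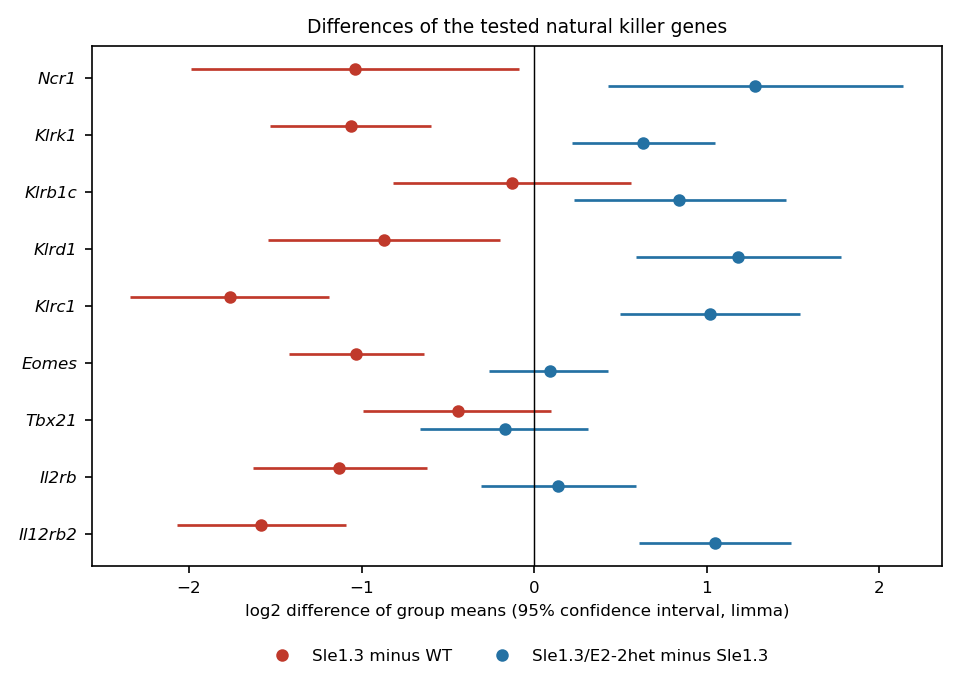
Log2 differences of group means (horizontal axis) of the 9 genes tested, with 95% confidence intervals from the limma fit to all 8 arrays. Sle1.3 minus WT is in red and Sle1.3/E2-2het minus Sle1.3 in blue, and the blue intervals of Eomes, Tbx21 and Il2rb span 0 (-0.26 to 0.43, -0.66 to 0.31 and -0.31 to 0.59) where those of the other 6 genes lie above it. The intervals are not adjusted for the number of genes tested, and 0 of the 9 blue differences passed after adjustment.

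Sle1.3/E2-2het spleens were compared with Sle1.3, the group that shares the lupus genotype and whose labels name no loss of E2-2, although Tcf4 was not lower in the array labelled Sle1.3/E2-2het replicate 3. In the planned fit 0 of the 9 genes passed, and 0.0134% of all genes did, which is 2 of 14953. At an unadjusted p under 0.05 there were 6 of the 9 (Ncr1, Klrk1, Klrb1c, Klrd1, Klrc1 and Il12rb2), all higher, and 625 of all genes. The array labels give the mice of both groups the numbers 1 to 3, and same-numbered mice deviated together across all genes. With the replicate number as a block those 6 genes were called higher, where 0.548% of all genes were. Their adjusted p values from limma with this block were 0.0104 for Ncr1, 0.0487 for Klrk1, 0.00655 for Klrb1c, 0.00155 for Klrd1, 0.00516 for Klrc1 and 0.00697 for Il12rb2. A block on the arrays of the Sle1.3 groups alone called the same 6 (0.689% of all genes), and the block on the first array set called 5, all but Klrk1 (0.502%). With the array set as the only block, Il12rb2 alone passed (adjusted p = 0.0204, 0.154% of all genes called higher), and without a block the first set called 0 of the 9 (0.14%). Over all alternatives the lowest adjusted p of a gene lay between 0.00155 (Klrd1) and 0.043 (Klrk1) for these 6, the highest was 1.00, or 0.693 for Il12rb2, and all their differences stayed above 0.

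Within the numbered pairs of Sle1.3/E2-2het minus Sle1.3, the log2 difference of Ncr1 was 0.46, 1.33 and 2.06 for numbers 1, 2 and 3. That of Klrd1 was 0.75, 1.34 and 1.46, that of Klrc1 0.85, 0.70 and 1.49, and that of Il12rb2 0.68, 0.83 and 1.63. Replicate 3 gave the largest difference for each of these genes and for Klrk1 (0.41, 0.42 and 1.06), but not for Klrb1c (0.58, 1.14 and 0.80). In that pair both mice expressed Xist, whereas pairs 1 and 2 set a male against a female, and Tcf4 was lower in the Sle1.3/E2-2het mouse of pairs 1 and 2 (-0.49 and -0.50) and not of pair 3 (0.19). The part of sex and of the array set in these differences was not tested further. All 6 genes were higher in every pair, as 16.2% of all genes were, and in 5 of the 9 the 2 groups did not overlap, as in 3.04% of all genes. Eomes (0.02, -0.13 and 0.38), Tbx21 (-0.12, -0.58 and 0.18) and Il2rb (0.03, -0.28 and 0.68) had both signs.

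**Figure D3:**
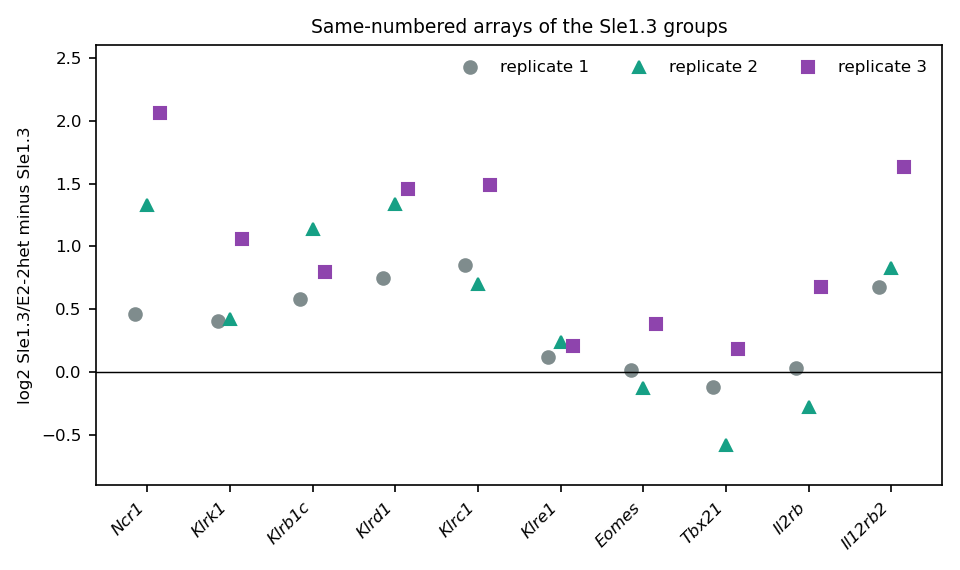
Log2 difference (vertical axis) of each Sle1.3/E2-2het array from the Sle1.3 array with its replicate number for the 10 genes. Ncr1, Klrk1, Klrb1c, Klrd1, Klrc1 and Il12rb2 lay above 0 in all 3 pairs, between 0.41 and 2.06, and Eomes, Tbx21 and Il2rb fell on both sides of it.

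Differences between 2 genes within an array, which cancel any scaling of that array, describe the same split. Eomes was taken as the reference after its values had been seen, so these shifts are given with no test. Klrk1 minus Eomes was -1.71, -1.72 and -1.90 in Sle1.3 and -1.31, -1.17 and -1.23 in Sle1.3/E2-2het, a shift of 0.54 without overlap. Klrc1 minus Eomes shifted by 0.93, Klrd1 minus Eomes by 1.10 and Il12rb2 minus Eomes by 0.96, again without overlap. Ncr1 minus Eomes shifted by 1.20 and Klrb1c minus Eomes by 0.75, but for both Sle1.3/E2-2het replicate 1 (-1.88 and -1.81) lay among the Sle1.3 mice. Il2rb and Tbx21 minus Eomes shifted by 0.05 and -0.26, with overlap. Between Sle1.3 and WT the shifts were -0.01 for Ncr1, -0.03 for Klrk1, 0.90 for Klrb1c, 0.16 for Klrd1, -0.73 for Klrc1 and -0.55 for Il12rb2, each minus Eomes.

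Against WT, Sle1.3/E2-2het spleens had 2 of the 9 genes lower, Eomes and Il2rb, and 0 higher, where 3.74% of all genes were called lower and 3.46% higher. Klrk1, Klrc1, Eomes, Il2rb and Il12rb2 were below WT without overlap, as 23.2% of all genes were. In the first array set 6 genes passed (Klrk1, Klrc1, Eomes, Tbx21, Il2rb and Il12rb2), beside 23.4% of all genes called lower there. Without Sle1.3/E2-2het replicate 1 no gene of the panel passed by limma, with 4 at an unadjusted p under 0.05, beside 3409 of all genes. Leaving out WT replicate 1 or WT replicate 2 leaves 1 WT mouse. The medians of the 9 differences were then -0.64 and -0.43, against -0.54 in the planned fit. Eomes alone passed without Sle1.3 replicate 1 or without Sle1.3/E2-2het replicate 2. The 3 comparisons share arrays, so their results are not independent of each other.

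Related genes were read from lists drawn up by role, and their counts stand beside 3.22% of all genes called lower and 2.66% called higher in Sle1.3 against WT. Among 16 other NK surface receptors tested, 0 passed in Sle1.3 against WT (limma, median -0.14, with 6 at an unadjusted p under 0.05), and the smallest p was that of Cd27, a co-stimulatory receptor of immature NK cells and T cells, with -0.87 (SE 0.24, limma adjusted p = 0.0555). Klri1 and Klri2, the partners of Klre1, had -0.96 (adjusted p = 0.0744) and -0.74 (adjusted p = 0.114). Of 5 Ly49 receptors tested, Klra8, the activating Ly49H receptor for a cytomegalovirus protein, fell (-1.12, SE 0.29, adjusted p = 0.0455), with the reserve that Ly49 genes resemble each other closely. In Sle1.3/E2-2het against Sle1.3 neither list had a call in the planned fit (medians 0.14 and 0.15, and 5 and 2 genes at an unadjusted p under 0.05). With the replicate block, which called 0.548% of all genes higher and 1.2% lower, Klri2 (0.95, adjusted p = 0.0152) and Klra8 (0.94, adjusted p = 0.00311) were higher, while Tigit (-0.88, adjusted p = 0.00627), an inhibitory receptor also of T cells, and Klra17 (-0.77, adjusted p = 0.0231) were lower. The block on the first array set called Klra8, Tigit and Klra17 and not Klri2, which differed by 0.64 in that set without a block (adjusted p = 0.308), and the array set as a block called Klra8 and Tigit.

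Adaptors and proximal signalling molecules that pass on the signals of these receptors (13 tested) had 0 calls in Sle1.3 against WT by limma, 3 genes at an unadjusted p under 0.05 and a median of -0.01. Tyrobp (DAP12) differed by 0.03 and Hcst (DAP10), the adaptor of NKG2D, by 0.30 (limma adjusted p = 0.965 and 0.547). Of 3 ligands tested, H60b, a ligand of NKG2D, was lower in Sle1.3 by 1.14 on the log2 scale (log2 difference -1.14, SE 0.20, adjusted p = 0.0131) and stayed low in Sle1.3/E2-2het (6.95 ± 0.04 SD in WT, n = 2, 5.81 ± 0.15 in Sle1.3 and 5.91 ± 0.28 in Sle1.3/E2-2het, n = 3 each). The kinase Zap70 was lower in Sle1.3/E2-2het than in Sle1.3 with the replicate block (-0.93, adjusted p = 0.0192), on the first array set too, and was not called with the array set as a block.

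The axis of interleukin-2, interleukin-12, interleukin-15 and interleukin-18 carried 4 falls in Sle1.3 against WT among 17 genes tested (3.22% of all genes fell), with a median of -0.46. Stat4, which transmits the interleukin-12 signal of Il12rb2, was 11.32 and 11.27 in WT, 10.05, 10.31 and 9.92 in Sle1.3, and 10.22, 10.21 and 10.61 in Sle1.3/E2-2het. It fell from WT to Sle1.3 by 1.20 (log2 difference -1.20, SE 0.20, limma adjusted p = 0.00989), and the Sle1.3 groups overlapped. Il2ra, the alpha chain of the interleukin-2 receptor (-1.14, adjusted p = 0.0149), Il21r, the interleukin-21 receptor (-1.08, adjusted p = 0.0176), and Jak2, a kinase of interleukin-12 signalling (-0.93, adjusted p = 0.0229), fell too. Il12rb1, the other chain of the interleukin-12 receptor, differed by 0.08 and Il15 by -0.46 (adjusted p = 0.814 and 0.368). In Sle1.3/E2-2het against Sle1.3 this list had 0 calls by limma with or without the replicate block (median 0.03, 2 genes at an unadjusted p under 0.05). Stat4 differed by 0.25 there. In the planned fit neither Il12rb2 nor Stat4 was called. With the replicate block Il12rb2 was called higher (adjusted p = 0.00697) and Stat4 was not called (adjusted p = 0.503).

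Of 17 other transcription factors of NK and innate lymphoid cells, Runx3 fell in Sle1.3 against WT (-1.23, SE 0.23, limma adjusted p = 0.0148), and the list's median was 0.02. Runx3, a RUNX factor of NK and CD8 T cells, was 9.66 and 9.49 in WT, 8.32, 8.37 and 8.33 in Sle1.3, and 8.81, 8.21 and 8.98 in Sle1.3/E2-2het, so that both Sle1.3 groups lay below WT and overlapped. Between the Sle1.3 groups it differed by 0.32 (adjusted p = 1.00). The receptor promoters printed above hold the RUNX letters searched, and those of Eomes and Tbx21 do not. These letters were chosen after the sequences had been read, so this contrast is a description only. The window of Il12rb2, which was higher in Sle1.3/E2-2het beside the receptors, does not hold them either, and Klrd1 had no window. Nothing measured here bears on binding, and a part of RUNX factors in these differences was not tested. With the replicate block Tox (-0.96, adjusted p = 0.00516), Tox2 (-0.79, adjusted p = 0.02) and Ikzf2 (-0.66, adjusted p = 0.0203), factors also of exhausted, follicular helper or regulatory T cells, were lower in Sle1.3/E2-2het than in Sle1.3, and 0 of the list were higher.

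Cytotoxic effectors (16 tested) had 3 falls and 1 rise in Sle1.3 against WT (3.22% and 2.66% of all genes), with a median of -0.30. Serpinb9, an inhibitor that protects killer cells from granzyme B (-1.18, limma adjusted p = 0.0231), Fasl, the Fas ligand (-1.03, adjusted p = 0.0333), and the chemokine Xcl1 (-0.85, adjusted p = 0.0402) fell, and Tnfsf10, the death ligand TRAIL, rose by 0.84 (adjusted p = 0.0315). In Sle1.3/E2-2het against Sle1.3 none passed in the planned fit, with 7 at an unadjusted p under 0.05. Gzmb, granzyme B, was 7.14, 7.12 and 7.0 in Sle1.3 and 7.58, 7.93 and 8.58 in Sle1.3/E2-2het, without overlap. With the replicate block Gzma (1.11, adjusted p = 0.00873), Gzmb (0.94, adjusted p = 0.02), Xcl1 (0.77, adjusted p = 0.0208) and Serpinb9 (0.79, adjusted p = 0.0353) were higher and Gzmk (-0.77, adjusted p = 0.012) was lower. Of these, the block on the first array set called Gzma and Gzmk, and the array set as a block called Gzmk alone. Perforin, Prf1, differed by 0.54 and did not pass with the block (adjusted p = 0.163).

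**Figure D4:**
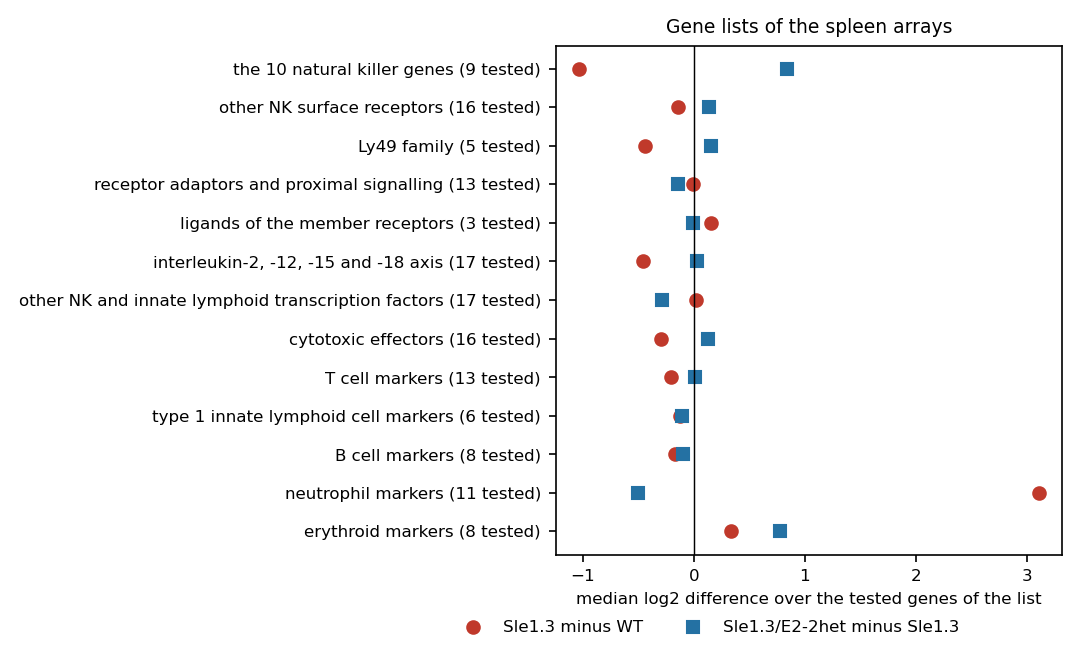
Median log2 difference (horizontal axis) over the tested genes of each list, for Sle1.3 minus WT (red circles) and Sle1.3/E2-2het minus Sle1.3 (blue squares). The 9 NK genes tested had medians of -1.04 and 0.84, and neutrophil markers 3.11 and -0.50, where the medians over all genes were 0.03 and 0.00.

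Markers of other spleen cells moved beside these genes. Neutrophil markers rose in Sle1.3 against WT in 11 of 11, beside 2.66% of all genes, and their summed linear intensity was 1708 to 2359 in WT, 6740 to 23982 in Sle1.3 and 7770 to 21082 in Sle1.3/E2-2het, while that of the 10 NK genes was 2663 to 2958, 1283 to 1476 and 1542 to 2304. T cell markers (13 tested) had 1 call in Sle1.3 against WT, a fall of Thy1 (-0.94, limma adjusted p = 0.0197), with a median of -0.21 and summed intensities of 5740 to 6411 in WT, 4519 to 5617 in Sle1.3 and 4148 to 6664 in Sle1.3/E2-2het. Type 1 innate lymphoid cell markers (6 tested) had 0 calls, 1 gene at an unadjusted p under 0.05, and summed 2073 to 2690, 1851 to 2509 and 1765 to 3232. Of 8 B cell markers, Fcer2a fell (-1.01, adjusted p = 0.0267), and their sums were 13348 to 16200, 11665 to 13713 and 10429 to 15382. In Sle1.3/E2-2het against Sle1.3 erythroid markers had a median of 0.78, with summed intensities of 656 to 956 in Sle1.3 and 1520 to 2917 in Sle1.3/E2-2het (707 to 736 in WT), and 5 of 8 passed with the replicate block. T cell markers had a median of 0.01 in that comparison and differed both ways, with Cd4 at -0.75 (adjusted p = 0.0474 with the replicate block) and Cd3e at -0.49, against 0.48 for Cd8a and 0.36 for Cd8b1, which the block did not call (adjusted p = 0.0876 and 0.262). The block on the first array set called Cd4 and Cd3e lower. Of the neutrophil markers, Mpo (-1.36), Elane (-1.12) and Prtn3 (-1.08) were lower with the replicate block. With the block on the first array set 0 of the 11 were (limma, 4 at an unadjusted p under 0.05, beside 2233 of all genes). The part of other cell types in the NK gene differences was not tested.

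The profiles most like those of 4 members were sought among the other genes tested, by the root mean square distance between log2 profiles centred on their mean over the 8 arrays. This is a description that shares arrays and groups. The 5 nearest to Ncr1 were Snora75 (0.309), Gzmb (0.351), Snora20 (0.365), Klri2 (0.386) and Snora23 (0.416), where the median gene lay at 0.79 and the nearest of the 10 was Klrd1 (0.418). Gzmb and Klri2 are killer cell genes, and the other three are small nucleolar RNAs. Klrk1 was nearest to Antxr2 (0.129), Elovl5 (0.145), Bcl2l11 (0.146), Rnf125 (0.149) and 1700109H08Rik (0.15), with Il12rb2 the nearest of the 10 (0.239) and a median of 0.531. Bcl2l11 encodes the pro-apoptotic protein Bim. Eomes was nearest to Bysl (0.0721), Ifnar1 (0.0756), Lrrc8c (0.0878), Irak2 (0.0879) and Tmem115 (0.0939), and Il2rb to Il21r (0.0871), Dusp5 (0.0915), Cyth1 (0.0916), Il2ra (0.109) and Exosc1 (0.109). Eomes and Il2rb were each other's nearest of the 10 (0.167), with median distances of 0.499 and 0.535 over all genes. The small distances of Eomes and Il2rb are those of genes that read high in WT and at one lower level in both Sle1.3 groups.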

How the data were processed

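Affymetrix Mouse Gene 1.0 ST arrays were hybridised with spleen RNA (250 ng per sample, per the labels' protocols), 1 array per mouse. The authors deposited 1 intensity per probe set on a linear scale, and RMA and Affymetrix Expression Console were used, per the submitters' processing notes. Their versions and roles and the genome build are not given in the sources used here, so no position of a probe set is given. Background levels and detection calls were not analysed here.

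Log2 was taken of the deposited intensity. Of 35556 probe sets, 21789 had a single gene, 1621 several and 12146 none, and only the first kind was used. Where a gene had several, the one of highest mean stood for it (19938 genes), and genes above the 25th percentile of mean log2 intensity (5.01) were tested, which left 14953. Group differences came from 1 limma fit (3.58.1, R 4.3.3, lmFit and eBayes, two-sided) to all 8 arrays with the group as the only term and Benjamini-Hochberg adjustment over all genes tested, at a threshold of 0.05. Labelled sex was left out because it falls together with the array set within the Sle1.3 groups, and it was tried as an alternative, as labelled, although 1 array (Sle1.3 replicate 3) went against its label. The fits were tested on simulated data.

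Replicate numbers come from the sample titles. Across genes, same-numbered Sle1.3 and Sle1.3/E2-2het arrays deviated from their group means together. The correlations were 0.573, 0.369 and 0.618 for numbers 1, 2 and 3, against -0.536 to 0.119 for other numbers. Deviations within a group cancel, so these correlations are not independent of each other, and the arrays numbered 3 are also an array set of their own. Because same-numbered arrays deviated together, the fit with the replicate number as a block is given beside that comparison. WT has only 2 numbers, so for WT the block is given with the alternatives. Labels do not say how the mice were bred or collected. The p values of the planned fit measure the spread between these mice within groups, which includes any difference of array set or sex. With a block they measure the spread left after the block.

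The members, the gene lists and the tests were chosen with earlier results of these data known. All members are named, and from each other list up to 3 genes past the threshold per direction, or the gene with the smallest p where none passed. Other genes named were chosen after their values were seen. Promoters are those of RefSeq on GRCm38.p6. Lists are described by counts and medians, with no test of the list.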

Additional observations from a re-analysis of the deposited data

How the results depend on the processing

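Each comparison was refitted with the array set or the replicate number as a block, on the first array set alone, with labelled sex (which Xist contradicts in the array labelled Sle1.3 replicate 3), with median centring, quantile normalization, 16 added before log2, other filters, the mean over probe sets, a mean-variance trend, and without each array. Centring on the tested genes, and blocks on the first array set or on the Sle1.3 groups alone, were added after seeing the data.

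In Sle1.3 versus WT, 5 of the 9 NK genes and 879 of all genes passed. The replicate block gave 8 and 4410, adding Ncr1, Klrd1 and Tbx21 as lower, and leaving out 1 array gave 0 to 5 and 2 to 1658. The count over all genes was 3585 with the array set as a block, 2367 in the first set, 3449 there with the replicate block, 199 with labelled sex, 2507 with median centring, 1971 with centring on the tested genes and 538 with no filter. Klrb1c alone changed sign, to 0.14 and 0.04 without WT replicate 2 or Sle1.3 replicate 1 (lowest -0.40).

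In Sle1.3/E2-2het versus Sle1.3, 0 of the 9 and 2 of all genes passed (limma; 6 and 625 at an unadjusted p under 0.05). The replicate block gave 6 and 262, on the Sle1.3 groups alone 6 and 332, on the first set 5 and 216, and the array set block 1 and 92. Of all genes, 79 passed in the first set, 26 with median centring, 18 with centring on the tested genes, 18 after quantile normalization, 13 with the filter at the 50th percentile, 0 each with labelled sex, 16 added or no filter, and 0 to 78 without 1 array. Eomes (-0.06) and Il2rb (-0.13) turned below 0 in the first set with and without the block, and without 1 array Il2rb ran from -0.09 to 0.32 and Tbx21 from -0.40 to 0.01.

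In Sle1.3/E2-2het versus WT, 2 of the 9 and 1076 of all genes passed. These became 4 and 5092 with the set of the array as a block, 6 and 5086 in the first set, 7 and 6259 there with the replicate block, 6 and 6008 with the replicate block (Klrc1, Eomes, Tbx21, Il2rb and Il12rb2 lower, and Klrb1c higher by 0.51, adjusted p = 0.0173), and 5 and 4131 with median centring. The NK genes called were 1 each with quantile normalization and no filter and 0 to 3 without 1 array. All genes called were 492 with labelled sex, 2880 with centring on the tested genes, 619 with no filter and 5 to 2583 without 1 array. Ncr1 turned to -0.19 in the first set with and without the block and ran from -0.19 to 0.76 without 1 array (-0.10 without WT replicate 1), and Klrd1 from -0.06 to 0.69.

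Median centring moved the median of all genes from 0.03 to -0.10 in Sle1.3 versus WT and from -0.01 to -0.17 in Sle1.3/E2-2het versus WT, and that of the NK genes from -1.04 to -1.17 and from -0.54 to -0.70. Of the calls in Sle1.3 versus WT, 398 were higher and 481 lower as planned, 640 and 1867 with median centring and 1128 and 843 with centring on the tested genes. The cause of these changes was not tested. With 8 arrays and no background level, differences of dim genes such as Klre1 could not be told from 0.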

Other observations

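Against WT, Sle1.3/E2-2het spleens had granzyme genes moving in opposite directions. Gzma, granzyme A, was 6.10 and 6.65 in WT, 6.67, 7.19 and 6.29 in Sle1.3, and 7.56, 7.85 and 8.09 in Sle1.3/E2-2het, and it rose against WT by 1.46 (SE 0.28, limma adjusted p = 0.0174). Gzmk, granzyme K, which T cells also make, was 8.27 and 8.20 in WT, 8.0, 7.73 and 7.49 in Sle1.3, and 6.93, 6.97 and 7.03 in Sle1.3/E2-2het, and it fell against WT (log2 difference -1.26, SE 0.19, adjusted p = 0.00758). For both genes the Sle1.3/E2-2het mice lay apart from all others. Among the 16 cytotoxic effectors these were the only calls in that comparison, where 3.46% of all genes were called higher and 3.74% lower.

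Among 17 other transcription factors of NK and innate lymphoid cells, Gata3 (-1.06, limma adjusted p = 0.0363), Runx3 (-0.91, adjusted p = 0.0394) and Nfil3 (-0.68, adjusted p = 0.0479), a factor of early NK cell development, were lower in Sle1.3/E2-2het than in WT, and Cd27 (-0.90, adjusted p = 0.0466) was the 1 call among 16 other NK receptors. Tigit in the Sle1.3/E2-2het mice read 7.64, 7.62 and 8.69 for numbers 1, 2 and 3, against 8.72, 8.67 and 9.21 in Sle1.3. Klra8 in the same order was 6.48, 6.78 and 5.77, against 5.62, 5.57 and 5.02 in Sle1.3, beside 6.50 and 6.55 in WT. For both genes the replicate 3 mouse lay apart from the other mice of its group, to the same side in both Sle1.3 groups.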
